A study of Mus musculus with 10 samples.

Results

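Imprinted growth genes are the 10 genes Igf2, H19, Dlk1, Peg3, Mest, Cdkn1c, Igf2r, Grb10, Meg3 and Plagl1. They were taken as every probe set that the platform annotation lists under these symbols, which gave 21 of 22626 probe sets. Of these, 17 read over log2 4 on at least 5 of the 10 arrays, among 9801 probe sets that did. Transcripts were read on Affymetrix arrays from mouse embryos at E10.5, in dissected tissue containing both hindbrain and arches 1 to 4 of the pharynx. The wildtype group had 5 embryos and the Fbln1-null group had 5 embryos homozygous for a gene trap insertion in Fbln1, the gene of the matrix protein fibulin-1. All embryos came from matings of heterozygous carriers, and each array held 1 sample. Sex and litter are not given in the labels, and p-values reflect only how these samples vary. The series addresses what fibulin-1 does to signalling by the growth factor FGF8.

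Imprinted genes are transcribed mainly from the copy inherited from 1 parent, owing to a methylation mark set in the egg or sperm on 1 of the copies. Many act on embryonic growth. Among the genes here, Igf2, Dlk1, Peg3, Mest and Plagl1 are active mainly on the paternal copy, and H19, Cdkn1c, Igf2r and Meg3 on the maternal copy. Grb10 is maternal in most tissues and paternal in neurons. In embryos these transcripts are abundant in mesoderm and in several epithelia and fall after birth. The arrays measured total transcript and could not tell the parental copies apart.

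The region before a gene's start is shown for 4 members. Mest, Plagl1 and Meg3 are shown because their start regions are textbook cases of methylation on the silent copy, and because these 3 held a match to TGCCGC. That hexamer is the core of the site bound by ZFP57, the zinc finger protein that keeps imprints after fertilisation, and Zfp57 was measured below. Dlk1 is shown because its difference between genotypes was the largest in size among the members' brightest probe sets. The sequences are the 250 bases before the start from RefSeq, build GRCm38.p6, all on the plus strand, and capitals mark TGCCGC on either strand. They come from Mest at chr6:30737800-30738049, Plagl1 at chr10:13090582-13090831, Meg3 at chr12:109540746-109540995 and Dlk1 at chr12:109452573-109452822.
Mest: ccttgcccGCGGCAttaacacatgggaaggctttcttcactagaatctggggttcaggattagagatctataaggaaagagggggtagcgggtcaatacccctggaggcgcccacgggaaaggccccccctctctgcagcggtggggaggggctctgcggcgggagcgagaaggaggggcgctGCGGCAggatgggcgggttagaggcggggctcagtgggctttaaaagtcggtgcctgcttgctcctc
Plagl1: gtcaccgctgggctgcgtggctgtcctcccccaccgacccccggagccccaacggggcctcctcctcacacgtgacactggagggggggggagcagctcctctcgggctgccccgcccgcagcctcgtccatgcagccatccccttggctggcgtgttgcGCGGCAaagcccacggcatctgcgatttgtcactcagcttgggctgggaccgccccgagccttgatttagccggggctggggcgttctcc
Meg3: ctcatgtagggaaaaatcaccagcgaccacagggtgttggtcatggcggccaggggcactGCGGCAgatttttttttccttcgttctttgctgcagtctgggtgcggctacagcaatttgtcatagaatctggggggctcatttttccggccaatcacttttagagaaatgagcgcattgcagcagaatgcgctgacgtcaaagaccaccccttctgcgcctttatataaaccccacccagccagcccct
Dlk1: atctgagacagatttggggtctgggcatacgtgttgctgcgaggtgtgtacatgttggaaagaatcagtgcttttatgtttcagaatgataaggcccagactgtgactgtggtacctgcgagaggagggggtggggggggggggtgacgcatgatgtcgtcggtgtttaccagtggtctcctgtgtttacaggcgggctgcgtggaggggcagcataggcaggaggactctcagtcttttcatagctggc
The Mest window held 2 matches, Plagl1 and Meg3 held 1 each, and Dlk1 held 0. RefSeq promoter entries matched 8 of the 10 members, with 15 windows, of which 4 held the hexamer, and 2 of those 4 were Mest windows that overlap almost wholly. Over all 32851 windows of that length the share with a match was 8.68%. A match describes the letters and is no evidence of binding. The hexamer was searched on both strands and holds the CpG pair that is methylated on a marked copy. The printed windows held 14 CpG pairs in Mest, 19 in Plagl1, 10 in Meg3 and 8 in Dlk1, against a median of 6 over all windows. A match itself holds a CpG pair, and 3 of these windows were chosen partly for one, so their counts depend on that choice. Member windows not printed held from 0 CpG pairs, in another Meg3 window, to 40, in a Grb10 window.

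The arrays were alike in scale, with medians between 3.20 and 3.29 on the log2 scale and correlations between arrays of 0.985 to 0.996. The brighter Fbln1 probe set read 3.83 to 5.11 in wildtype and 2.52 to 2.85 in null arrays, so the groups did not overlap. It was under the filter and so outside the main fit. In the fit without a filter its log2 fold change was -1.88, and it did not pass (limma adjusted p = 0.0715). Wildtype replicate 4 was the 1 array with Xist signal. The log2 ratio of the 3′ to the 5′ actin control probe set, a measure of RNA integrity, was 1.9997 to 2.38 in wildtype and 2.19 to 2.85 in null arrays. Of the hindbrain markers with a probe set of their own, Pax3, Sox2, Hoxa2, Hoxa3 and Hoxb3 were over the filter. Hoxb1, Hoxb2, Egr2 and Sox3 were under it. Of the arch markers, Prrx1, Twist1, Dlx1, Dlx2 and Prrx2 were over the filter. Hand2, Msx1, Msx2, Dlx5, Dlx6, Barx1, Gsc, Alx4 and Tbx1 were under it. For 9 marker lists of this tissue and of others, the mean deviation of the markers over the filter overlapped between the genotypes. The heart list and the liver and yolk sac list each rested on 1 gene, and the others on 4 to 10. Fewer cells of a type and less RNA per cell cannot be told apart in these samples.

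No member differed between the genotypes at an adjusted p of 0.05. In the limma fit with Benjamini-Hochberg adjustment over 9801 probe sets, 0 of the 17 member probe sets passed, where 0.0204% of all probe sets did. At an unadjusted p of 0.05 it was also 0 of 17, against 12.4% of all probe sets. The 2 genotypes overlapped on all 17, while 2.77% of all probe sets showed no overlap. On the brightest probe set of each gene, 5 of the 10 members had a higher and 5 a lower mean in null tissue, with a median log2 fold change of -0.01. The median over 5912 genes was -0.04, and the mean was lower in null tissue for 56.9% of them, as for 56.9% of probe sets. That majority depends on the scaling: 48.9% of probe sets were lower with quantile normalization and 48.4% with median centring of arrays, with medians of 0.0059 and 0.0093. The 5 genes active on the paternal copy had a median of -0.03 and the 4 active on the maternal copy other than Grb10 0.013, or 0.0005 with Grb10 counted among them.

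**Figure D1:**
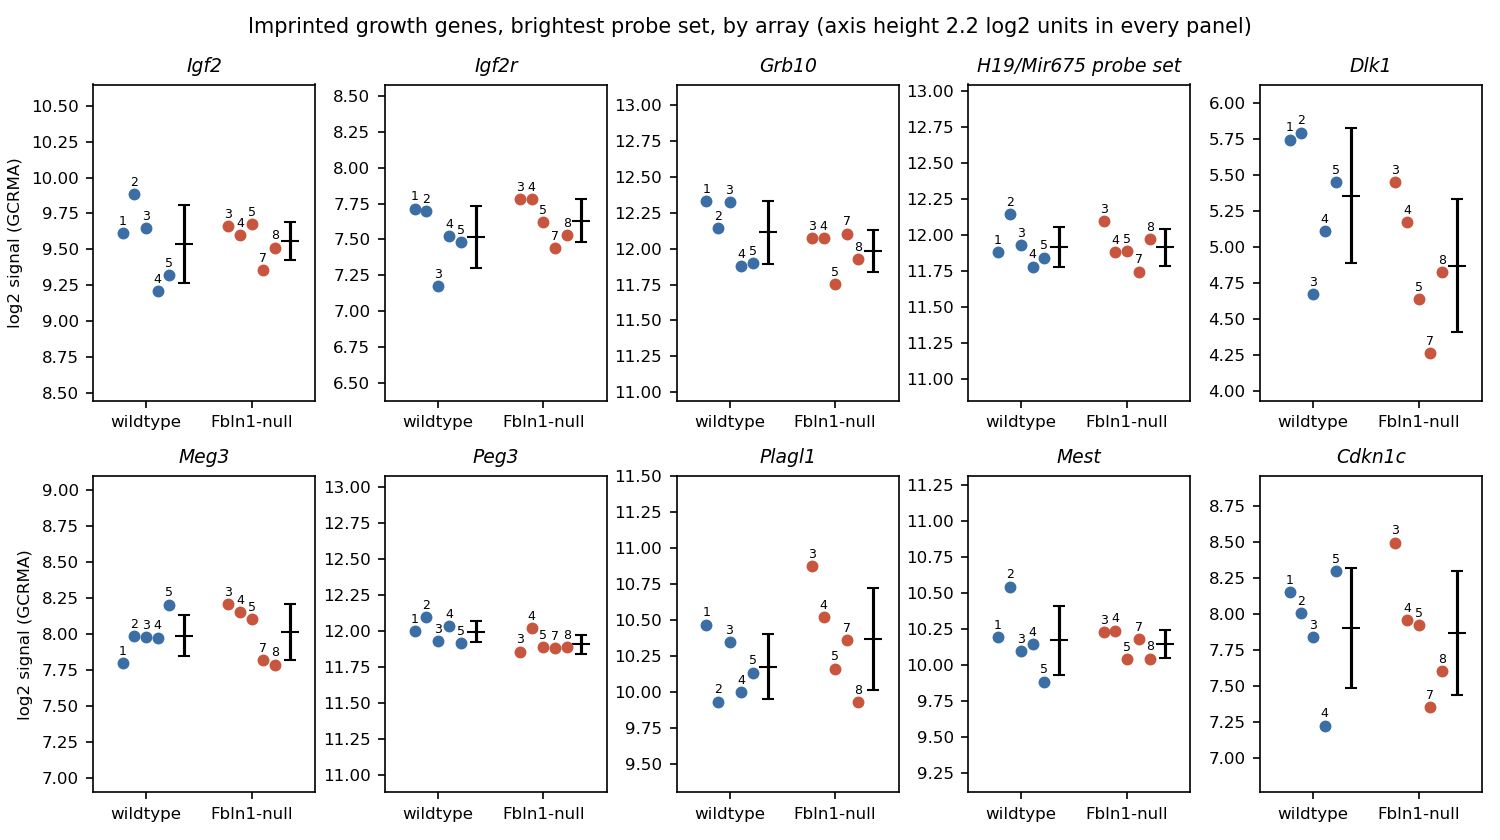
Log2 signal of each imprinted growth gene on its brightest probe set, by array; the number at a point is the replicate, and the bar is the mean with its SD (n = 5 per genotype). Every panel spans the same height of log2 units, and wildtype and null points overlap in all 10 panels.

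Igf2 encodes the main growth factor of the embryo, and its level was close to equal in the 2 genotypes. Its bright probe set, 1448152_at, read 9.61, 9.88, 9.65, 9.21 and 9.32 in wildtype replicates 1 to 5. It read 9.66, 9.60, 9.68, 9.36 and 9.51 in null replicates 3, 4, 5, 7 and 8. Wildtype replicate 2 was the highest and wildtype replicate 4 the lowest, so the null arrays lay inside the wildtype range. The means were 9.54 ± 0.27 (SD, n = 5) and 9.56 ± 0.13, a difference of 0.03 on the log2 scale (SE 0.14, adjusted p = 0.968 by limma). Its 95% interval, from -0.29 to 0.34, corresponds to 0.820 to 1.26 times the wildtype level. The other Igf2 probe set, 1415931_at, was under the filter at 2.32 to 3.42 over all arrays and carries little information on Igf2.

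Igf2r encodes the receptor that takes up IGF2 and delivers it for degradation. On 1424111_at it read 7.71, 7.70, 7.18, 7.52 and 7.48 in wildtype and 7.78, 7.78, 7.62, 7.44 and 7.53 in null arrays. Wildtype replicate 3 was the lowest array, and null replicates 3 and 4 were the 2 highest. Null minus wildtype was 0.11 on the log2 scale (SE 0.13, 95% interval -0.18 to 0.40, limma adjusted p = 0.789), and 0.026 without wildtype replicate 3. The dimmer probe set, 1424112_at, read 3.40 to 3.74 over all arrays and was under the filter.

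Grb10 encodes an adaptor that binds the insulin and IGF1 receptors and dampens their signals, and its 3 probe sets did not move together. The brightest, 1425458_a_at, read 12.33, 12.14, 12.32, 11.88 and 11.90 in wildtype and 12.07, 12.07, 11.75, 12.10 and 11.93 in null arrays. Its log2 fold change was -0.13 (SE 0.13, 95% interval -0.42 to 0.16, limma adjusted p = 0.747). The next, 1430164_a_at, read 5.97, 6.61, 6.69, 7.84 and 6.71 in wildtype and 6.68, 6.88, 6.95, 7.40 and 7.53 in null arrays. Wildtype replicate 4 was the highest of the 10 arrays on it and wildtype replicate 1 the lowest. Its log2 fold change was 0.32 (SE 0.29, 95% interval -0.31 to 0.95, limma adjusted p = 0.703). Without wildtype replicate 1 it was 0.12 (SE 0.27), and without wildtype replicate 4 it was 0.59 (SE 0.21, unadjusted p = 0.0183, limma adjusted p = 0.376), and with the actin ratio in the fit it was 0.75 (SE 0.25, limma adjusted p = 0.280). Without wildtype replicates 1 and 2 together it was 0.0069 (SE 0.29). The dimmest, 1425457_a_at, read 4.92 in wildtype replicate 4 and 3.75 to 4.41 in the other 9 arrays, with a log2 fold change of 0.06 (SE 0.21). After removal of the genotype means, the 2 dimmer probe sets had a Pearson r of 0.90 over the 10 arrays. Their r with the brightest was -0.55 for 1430164_a_at and -0.48 for 1425457_a_at. These correlations describe 3 readings of the same 10 samples. Grb10 has several promoters and splice forms, and which of them each probe set reads was not tested.

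**Figure D2:**
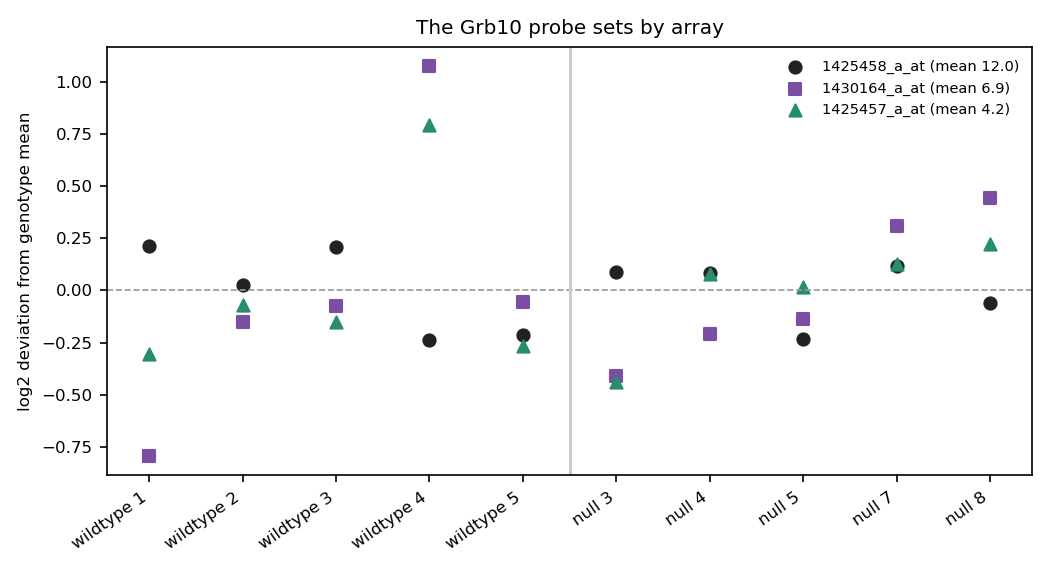
Log2 signal of the 3 Grb10 probe sets on each array, as the deviation from the mean of its genotype. In wildtype replicate 4 the 2 dimmer probe sets lie above their mean while the brightest lies below it.

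H19 is a noncoding RNA that lies beside Igf2 and shares enhancers with it, and each is active on the copy where the other is silent. Its 1 probe set, 1448194_a_at, is listed under both H19 and Mir675, the microRNA cut from the H19 transcript, so the signal cannot be assigned to H19 alone. It read 11.88, 12.15, 11.93, 11.78 and 11.84 in wildtype and 12.10, 11.88, 11.89, 11.75 and 11.97 in null arrays. Wildtype replicate 2 and null replicate 3 were the 2 highest arrays, and the groups overlapped. The means were 11.92 ± 0.14 (SD, n = 5) and 11.92 ± 0.13. Their difference was 0.0005 (SE 0.12, limma adjusted p = 0.999). Its interval of 0.839 to 1.19 times the wildtype level was among the narrowest of the members.

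Meg3 is the maternally expressed noncoding RNA of the Dlk1 region. Its brightest probe set, 1452183_a_at, read 7.80, 7.98, 7.98, 7.98 and 8.20 in wildtype and 8.21, 8.15, 8.10, 7.82 and 7.79 in null arrays. Null replicates 7 and 8 sat with wildtype replicate 1 at the low end. The difference of the means was 0.03 log2 units (SE 0.13, 95% interval -0.26 to 0.31, limma adjusted p = 0.965). The other 3 Meg3 probe sets over the filter had log2 fold changes of 0.002, 0.12 and 0.21, and the fifth, 1436713_s_at, was under it. Probe sets of 1 gene did not always follow each other from array to array. The r between Meg3 probe sets was -0.41 to 0.59.

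Dlk1 encodes a membrane protein related to the Notch ligands that holds precursor cells in an undifferentiated state. Its 1 probe set, 1449939_s_at, read 5.75, 5.80, 4.67, 5.11 and 5.45 in wildtype and 5.45, 5.17, 4.64, 4.26 and 4.83 in null arrays. Wildtype replicates 1 and 2 were the 2 highest arrays and null replicate 7 the lowest, and the groups overlapped over most of their ranges. The means were 5.36 ± 0.47 (SD, n = 5) and 4.87 ± 0.46. The difference of -0.49 log2 units (SE 0.25) did not pass (limma adjusted p = 0.472, unadjusted p = 0.0801, two-sided exact permutation p = 0.143). The 95% interval, -1.04 to 0.07, allows levels from 0.487 to 1.05 times wildtype, and is the widest among the brightest probe sets on the log2 scale. The value ranged from -0.66 to -0.33 with 1 array left out. It was -0.21 without wildtype replicates 1 and 2 and -0.66 without wildtype replicate 3 (unadjusted p = 0.0178, limma adjusted p = 0.289). Without null replicate 3 it was -0.63 (unadjusted p = 0.0278, limma adjusted p = 0.371).

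Peg3 and Plagl1 encode zinc finger transcription factors, and neither passed the test. The brightest Peg3 probe set, 1433924_at, read 11.998, 12.10, 11.93, 12.03 and 11.91 in wildtype and 11.86, 12.02, 11.88, 11.88 and 11.89 in null arrays. Among the null arrays only replicate 4 reached above the lowest wildtype array. The log2 fold change was -0.09 (SE 0.10, limma adjusted p = 0.782, two-sided exact permutation p = 0.0635), and its interval of 0.807 to 1.096 times wildtype was the narrowest of the 17 on the log2 scale. The Peg3 probe set 1417355_at had a log2 fold change of -0.02 (SE 0.19). On 1417356_at null replicate 5 read 4.11, while the other null arrays read 6.60 to 6.84 and the wildtype arrays 6.29 to 6.98. The difference there was -0.60 log2 units (SE 0.44, adjusted p = 0.626 by limma), and without null replicate 5 it was -0.078 (SE 0.16). On the other Peg3 probe sets that array was not the lowest, at 11.88 and 7.51.

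Plagl1, also known as Zac1, regulates a set of other imprinted genes. On 1426208_x_at it read 10.47, 9.93, 10.35, 9.9996 and 10.14 in wildtype and 10.87, 10.52, 10.16, 10.36 and 9.93 in null arrays. Null replicates 3 and 4 were the 2 highest arrays and null replicate 8 lay at the bottom beside wildtype replicate 2. Its log2 fold change was 0.19 (SE 0.18, 95% interval -0.20 to 0.58, limma adjusted p = 0.713), the highest of the 10, and it was 0.066 without null replicate 3. The other Plagl1 probe set, 1450533_a_at, read 3.39 to 4.34 and was under the filter.

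Mest, which encodes a protein of the hydrolase fold, read 10.19, 10.54, 10.10, 10.14 and 9.88 in wildtype on 1423294_at. The null arrays read 10.23, 10.24, 10.04, 10.18 and 10.04, all within the wildtype range. Mest had a log2 fold change of -0.03 (SE 0.13, 95% interval -0.31 to 0.26, limma adjusted p = 0.965).

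Cdkn1c encodes p57, an inhibitor of cyclin-dependent kinases that restrains proliferation. On 1417649_at it read 8.15, 8.01, 7.84, 7.22 and 8.30 in wildtype and 8.50, 7.96, 7.92, 7.35 and 7.60 in null arrays. The spread within each genotype was wide, with wildtype replicate 4 and null replicate 7 the lowest. For Cdkn1c the log2 fold change was -0.04 (SE 0.23, limma adjusted p = 0.975), and the interval of 0.684 to 1.39 times wildtype leaves a moderate change undetectable with 5 arrays per group.

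**Figure D3:**
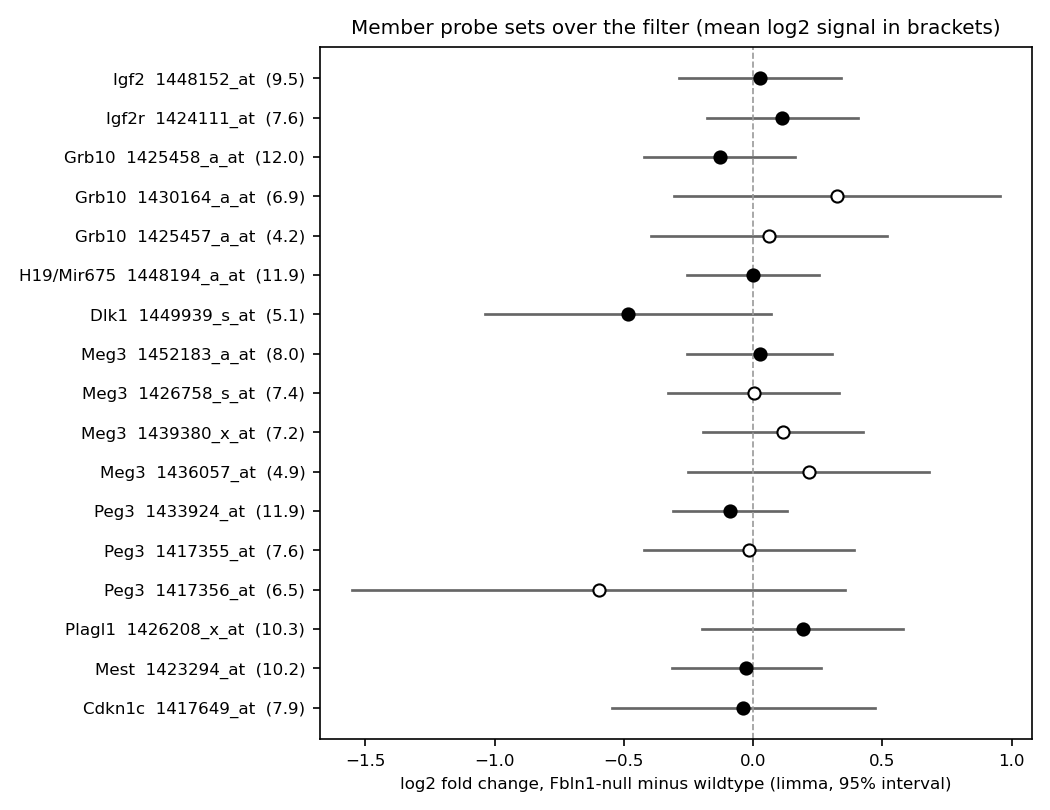
Log2 fold change (null minus wildtype) and 95% interval from limma for the 17 member probe sets over the filter, with filled points for the brightest probe set of a gene. All 17 intervals include 0, and the widest belongs to the Peg3 probe set with 1 low null array.

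The 4 member probe sets under the filter were fitted among all 22626 probe sets. At an unadjusted limma p of 0.05 it was 0 of 4, where 7.11% of all probe sets passed, and 0 of 4 were past an adjusted p of 0.05 (0.00442% of all). Their log2 fold changes of -0.28 to 0.09 come from values near the bottom of the scale.

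Array-to-array variation was compared between members after each genotype's mean was taken out. Of the 45 pairs of members 39 had a positive r over the 10 arrays, with a median of 0.34. Over all pairs of the 5912 genes 50.9% were positive and the median was 0.012. The pairs share members and arrays, and the group as a whole was not tested. Of the 45 pairs, 4 had a permutation p for Pearson's r under 0.05, and 1 after Benjamini-Hochberg adjustment, while for Spearman's rho it was 0 after adjustment. The 1 pair was Dlk1 and Igf2r (r = 0.92, permutation p = 0.00024, adjusted p = 0.0108, n = 10 arrays). Its Spearman rho was 0.84 (permutation p = 0.00357, adjusted p = 0.156), and r was 0.81 without the 2 arrays farthest from the Dlk1 median. With the genotype means left in, r for Dlk1 and Igf2r was 0.59. Wildtype replicates 1 and 2 and null replicates 3 and 4 were high in both genes, and wildtype replicate 3 and null replicate 7 were low in both. The neighbours Igf2 and H19 had r = 0.81 (permutation p = 0.00479, adjusted p = 0.108) and rho = 0.77 (permutation p = 0.0129, adjusted p = 0.194). With the 2 arrays farthest from the Igf2 median left out, r was 0.61, and with the genotype means left in it was 0.81. Peg3 with Mest had r = 0.73 (adjusted p = 0.190 by permutation) and Dlk1 with Cdkn1c 0.69 (adjusted p = 0.298 by permutation). The 5 arrays of a genotype are too few for a separate r.

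**Figure D4:**
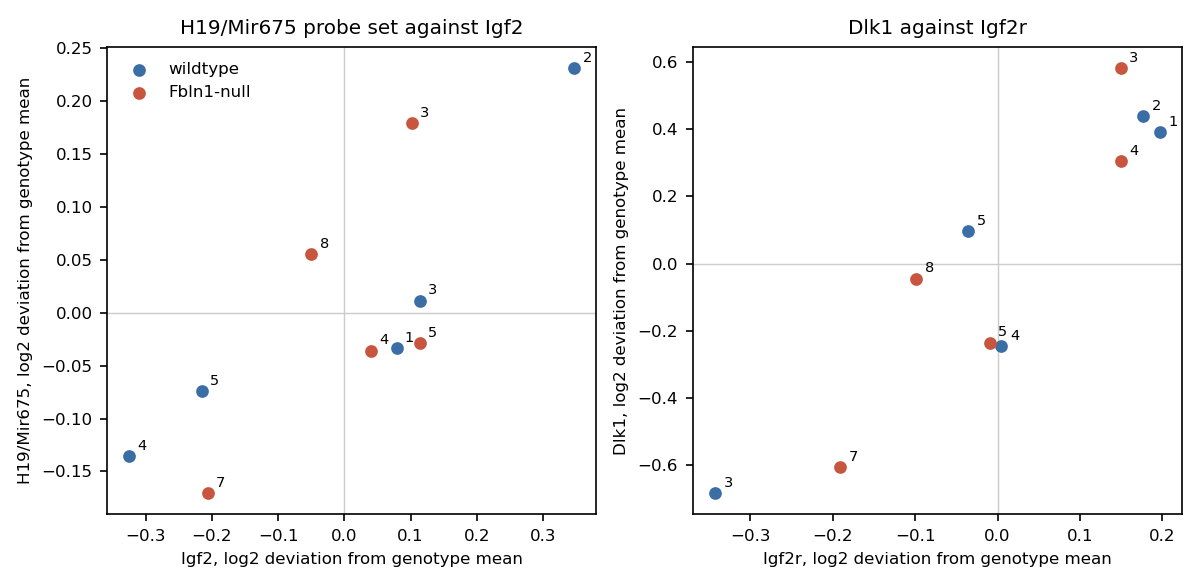
Deviation of each array's log2 signal from the mean of its genotype, for the H19/Mir675 probe set against Igf2 and for Dlk1 against Igf2r; numbers are replicates. Arrays of both genotypes lie along a rising band in each panel, with r = 0.81 and r = 0.92.

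The genes whose array-to-array pattern was most like a member's were picked by the highest r of deviations among named probe sets over the filter. For 3 genes per member these r were 0.856 to 0.980, each picked as the highest over all such probe sets on 10 arrays, and they are a description. They include values for Dlk1 and Igf2r above the r of that pair. The genes were Tle5, Phf8 and Terf2ip for Igf2, Mmp2, Ube2z and Sf3b2 for Igf2r, and Smoc1, Ube2z and Ubap2l for Dlk1. For H19/Mir675 they were Zfp740, Fbxo21 and Noct, for Meg3 Klf7, Pebp1 and Cnppd1, and for Grb10 Ywhaz, Nrep and Cbx1. For Peg3 they were Mrm1, Tle1 and Gemin2, and for Plagl1 they were Rad21, Tob1 and Serp1. For Mest they were Pde8a, Golga2 and Man2c1os, and for Cdkn1c they were Cbarp, Akr7a5 and Cap2.

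The spread of the brightest member probe sets within a genotype had a median SD of 0.19, and all 17 member probe sets over the filter a median of 0.23, against 0.27 over all 9801 probe sets. The probe sets were not matched for signal level in this comparison. Among the 10 brightest, that of Peg3 was the least variable at an SD of 0.07, and those of Dlk1 and Cdkn1c the most variable at 0.47 and 0.42. The dimmer Peg3 probe sets had 0.32 on 1417355_at and 0.85 on 1417356_at, the latter the largest of the 17.

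Other imprinted genes did not pass the test either. This list and those that follow are counted on each gene's brightest probe set with a single symbol. Of 38 listed genes with a probe set of their own, 23 were over the filter, and 0 passed limma at an adjusted p of 0.05 (0.0338% of 5912 genes did). At an unadjusted p of 0.05 it was 0 of 23, against 12.8% of all genes, with 8 means higher and 15 lower and a median of -0.06. On these probe sets the smallest p belonged to Blcap, a gene of the Nnat region, at -0.31 log2 units (SE 0.15, adjusted p = 0.440 by limma). Nnat, a small membrane protein of the developing nervous system, had 0.29 (SE 0.16), Atp10a, a phospholipid flippase, -0.29 (SE 0.17), and Impact, a regulator of translation, -0.32 (SE 0.20). The wildtype and null ranges overlapped for each of these 4. Smaller p-values stood on probe sets outside the count, picked after their values were seen. The dimmer probe set of Commd1, which encodes a protein of copper handling, had -0.43 (unadjusted p = 0.0152, limma adjusted p = 0.302), and its brightest had -0.07. A probe set listed under 2 symbols, and so assigned to no gene, had 0.44 (unadjusted p = 0.0203, limma adjusted p = 0.327). Genes that lie in the members' own regions were picked after their values were seen. Rian, a noncoding RNA downstream of Meg3, had 0.32 (SE 0.28) and Airn, the antisense RNA that silences Igf2r on the paternal copy, had 0.18 (SE 0.18). Usp29, beside Peg3, had 0.18 and Copg2, beside Mest, had 0.05. Phactr2, beside Plagl1, had -0.19, Ddc, beside Grb10, had -0.03, and Nap1l4, near Cdkn1c, had -0.06.

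Genes of the IGF and insulin axis had both higher and lower means in null tissue. Of 24 measured, 10 were higher and 14 lower (median log2 fold change -0.05), 0 passed limma over all probe sets, and 1 had an unadjusted p under 0.05, against 12.8% of all genes (3.84% of all genes with a higher mean in null tissue). That 1 gene was Igf1, which encodes a growth factor related to IGF2. It read 5.39, 5.70, 6.01, 6.12 and 6.07 in wildtype and 5.97, 6.08, 6.40, 6.35 and 6.36 in null arrays. The log2 fold change was 0.37 (SE 0.16, unadjusted p = 0.0396, limma adjusted p = 0.376), but its other probe set had 0.08 (SE 0.24). The genes next in order of p were Pik3ca, a catalytic subunit of PI3 kinase, at 0.30, Foxo1, a transcription factor held back by insulin signals, at -0.21 and Igf2bp1, which binds Igf2 messenger RNA, at -0.32.

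A list of genes that act on DNA methylation and chromatin, some of which set or keep imprints, was measured beside the members. Whether each of them acts on the members' imprints was not tested. Of 20 such genes 7 were higher and 13 lower (median -0.07), and 0 passed limma over all probe sets. An unadjusted limma p under 0.05 was reached by 2, against 12.8% of all genes. Both were lower in null tissue, and 9% of all genes had such a p with a lower mean. Mbd2, which binds methylated DNA, read 6.12, 5.98, 5.87, 5.89 and 6.03 in wildtype and 5.62, 5.65, 5.61, 5.41 and 5.23 in null arrays, so the groups did not overlap. The log2 fold change was -0.47 (SE 0.12, limma adjusted p = 0.151). Groups without overlap were found for 1 of the 20 genes, and for 170 of all 5912 genes. Dnmt3b, a methyltransferase that sets new methylation, had -0.52 (SE 0.19, limma adjusted p = 0.315), Smc3, a cohesin subunit, 0.33 and Suz12, of the Polycomb repressive complex, -0.26. Another Suz12 probe set had -0.34 (unadjusted p = 0.0370, limma adjusted p = 0.369). Zfp57 had -0.20 (SE 0.19) and Dnmt1, which copies methylation at replication, -0.13 (SE 0.21), and both were chosen for their role after the values were seen.

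Partners of single members were few over the filter. Of 6 other CDK inhibitors on the array, only Cdkn1b, the p27 relative of Cdkn1c, was over the filter. It had 0.45 log2 units (SE 0.20, unadjusted p = 0.0492, limma adjusted p = 0.3999) and 0.74 (SE 0.36) on its other probe set. An unadjusted limma p under 0.05 was reached by 12.8% of all genes. Plagl2, a relative of Plagl1, had 0.33 (SE 0.32). Of 4 Notch genes, 0 had an unadjusted limma p under 0.05, a count too small to set against the 12.8% of all genes. The 2 with the smallest p were Notch3 at -0.18 and Notch1 at -0.22.

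**Figure D5:**
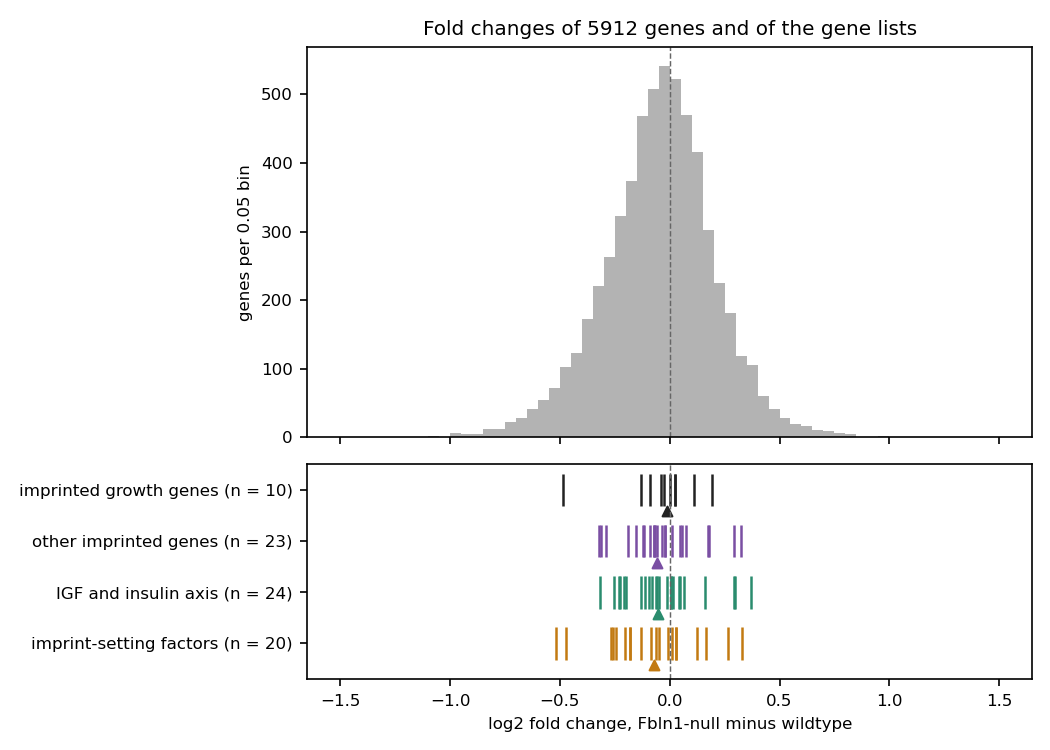
Histogram of log2 fold changes (null minus wildtype) of 5912 genes on their brightest probe set, and below it a tick for each gene of 4 lists with a triangle at the list's median. The medians, -0.01, -0.06, -0.05 and -0.07, sit beside the -0.04 of all genes, and Dlk1 is the tick farthest left among the imprinted growth genes.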

How the data were processed

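Biotin-labelled RNA made from 100 ng of total RNA was read on Affymetrix arrays, per the labels' protocols. The values the authors deposited are on the log2 scale, and the submitters' processing notes name GCRMA without a version. Under GCRMA, weak signals end near the bottom of the scale. Of 22690 rows, 64 controls were left out. Names come from the platform annotation, in which 20380 probe sets had 1 symbol, 691 several and 1555 none. H19 stands on a probe set listed under 2 symbols. Probe sets ending in _x_at or _s_at, which read Plagl1, Dlk1 and some of Meg3, can match several transcripts.

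Probe sets over log2 4 on at least 5 arrays were fitted with limma (version 3.58.1, R 4.3.3) on genotype, two-sided, with Benjamini-Hochberg adjustment over 9801. Single values were compared by exact permutation over 5 and 5 arrays, whose smallest p is 0.00794. Correlation p-values used 100000 resamples that shuffled the deviations freely across both genotypes. The shuffle ignores that deviations within a genotype are tied by the mean taken out, so these p-values are approximate and may be too small. Precision is limited by having 5 arrays a group.

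The members and lists were chosen with earlier results of these data known. The rule named every member, and from each list the genes past an adjusted p of 0.05 or otherwise the 4 with the smallest p (2 in lists of under 10). Alternatives changed the filter or floor, the scaling, array weights, the variance model, embryo sex or actin ratio as a covariate (1 array had Xist signal, so the sex term only removes wildtype replicate 4), a replicate block, arrays left out and the choice of probe set.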

Additional observations from a re-analysis of the deposited data

Results flagged for a closer look

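Of 42 groups of 5 arrays (21 member probe sets in each genotype), 6 had 1 array set apart from the others by a gap that is large for the range of its group. Chance sets apart about 1 in 20 groups.

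On the Peg3 probe set 1417356_at, null replicate 5 read 4.11, against a nearest null array of 6.60, and wildtype replicate 1 read 6.29, against 6.83. On the bright Peg3 probe set 1433924_at, null replicate 4 read 12.02, above the next null array at 11.89. On the Grb10 probe set 1425457_a_at, wildtype replicate 4, the 1 array with Xist signal, read 4.92, against 4.06. Among probe sets under the filter, Igf2 1415931_at read 3.42 in wildtype replicate 2, against 2.75, and Plagl1 1450533_a_at read 3.39 in null replicate 8, against 3.73. What set these arrays apart was not tested.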

How the results depend on the processing

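In 21 alternatives the count of member probe sets past an adjusted limma p of 0.05 was 0, as in the main setting. Embryo sex as a covariate gave the values of leaving out wildtype replicate 4, the 1 array with Xist signal, so these are 1 alternative and test no effect of sex. At an unadjusted p of 0.05 it was 1 with embryo sex or the actin ratio in the fit (a Grb10 probe set) and 0 to 1 with 1 array left out (Grb10 without wildtype replicate 4, Dlk1 without wildtype replicate 3 or null replicate 3), and 0 otherwise. The count over all probe sets at an adjusted p of 0.05 was 2. It was 1 without a filter, 34 with a log2 6 filter or array weights, 8 with a trend and robust prior, 0 with embryo sex, the actin ratio, the replicate block or wildtype replicates 1 and 2 left out together, and 0 to 7 with 1 array left out. Other imprinted genes at an unadjusted p of 0.05 numbered 2 without a filter, with embryo sex or with the actin ratio, and 1 with array weights, the replicate block or without wildtype replicates 1 and 2. IGF axis genes numbered 2 with array weights or the replicate block, 3 with the actin ratio and 0 with the mean of probe sets. With 1 array left out both lists gave 0 to 2.

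The difference of Dlk1, the largest among the members' brightest probe sets, turned from -0.49 to 0.0090 (SE 0.30, limma adjusted p = 0.996) with the replicate block. That fit compares only the 3 same-numbered pairs, and so leaves out wildtype replicates 1 and 2 and null replicates 7 and 8. With the block Igf2r was 0.33, Plagl1 0.36 and the Grb10 probe set 1430164_a_at -0.25, against 0.32 without it. Members nearer 0 also changed sign. Mest was 0.0076 with quantile normalization, 0.020 with median centring, 0.13 with the replicate block and 0.105 without wildtype replicates 1 and 2, and -0.098 to 0.067 with 1 array left out. Cdkn1c was 0.0077 with median centring, 0.34 with the block and 0.079 without those replicates (-0.21 to 0.090 with 1 left out). With the actin ratio Cdkn1c kept its sign and was -0.35 (SE 0.22). Igf2 was -0.045 with array weights, -0.055 with embryo sex and -0.11 with the actin ratio (-0.055 to 0.11). H19/Mir675 was -0.047, -0.033 and -0.043 in the same order (-0.044 to 0.058). Meg3 was -0.062 with the actin ratio and -0.039 without wildtype replicates 1 and 2 (-0.024 to 0.082). Grb10 was 0.085 with the mean of its probe sets. Igf2r, Peg3 and Plagl1 kept their sign on their brightest probe sets in all 22 alternatives, the duplicate included. The cause was not tested. Dlk1 gave no value with a log2 6 filter, and the counts of probe sets gave none with the mean of probe sets.

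The replicate numbers 3, 4 and 5 occur in both genotypes, but same-numbered arrays deviated with r of -0.19, -0.34 and 0.16 over 9801 probe sets. They share only a number, and the replicate block rests on 3 pairs.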
